A study of Mus musculus with 6 samples.

Results

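CD4 T cells were the 136 cells, among 12520 cells kept from soleus muscle, that carried at least 1 unique molecular identifier (UMI, a tag that marks 1 captured RNA molecule) of Cd4, the coreceptor of helper T cells, and UMIs of at least 2 of 6 T cell receptor and CD3 genes. They also carried no UMI of Cd8a or Cd8b1 and UMIs of at most 1 gamma delta receptor gene, and no UMI of the B cell and macrophage genes of the rule. The soleus, a postural muscle of the lower leg, was taken from male C57BL/6 mice, and its living CD45+ cells were sorted and run as 1 droplet library for each of 6 groups. The groups were old mice (20 to 22 months) and young mice (4 to 5 months), each as ambulatory controls, as mice with the hindlimbs unloaded for 14 days (HU), or as reload mice, which were unloaded for 14 days and then returned to their feet for 4. Tissue was pooled from 20 old and 10 young control mice, 10 old and 8 young HU mice, and 10 old and 10 young reload mice. No group had a second library, so every comparison within 1 age or 1 treatment sets 1 pool of mice against another, without a replicate check.

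CD4 T cells recognise peptides held on major histocompatibility complex class II molecules and act mainly by helping other immune cells, through surface molecules such as CD40 ligand and through cytokines. Regulatory T cells, marked by the transcription factor Foxp3, restrain other immune cells and are known in injured muscle for amphiregulin (Areg), a growth factor that acts on repair. Naive and central memory cells circulate between lymph nodes with the help of the chemokine receptor Ccr7, whereas some memory cells that have met antigen stay in tissue. With age the pool is known to shift towards memory cells.

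The cells were chosen by their UMIs of Cd4, Cd8a, Cd8b1 and the receptor genes, so the levels of these genes are a description. Of the 136 cells, 94 held exactly 1 Cd4 UMI. Cd3e, a signalling chain of the receptor complex, was seen in 126 cells, Cd3g in 113, Cd3d in 110, Trbc2 in 74, Trac in 66 and Trbc1 in 40. Cd247, the zeta chain of the complex, which the rule did not use, was seen in 84. Of these genes, Cd247 alone bears on the label independently of the rule. Just inside the rule were 16 cells with exactly 2 receptor genes and 33 with 3. Just outside it were 6 cells with a Cd4 UMI and 1 receptor gene, 39 with none, 4 with a Cd8 UMI and 12 with a B cell or macrophage UMI. A further 451 receptor-bearing cells had a UMI of neither coreceptor, and T cells whose Cd4 RNA was not captured are among the cells the rule could not take.

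CD4 T cells were a small share of the sorted cells in every library, and the share was not the same in all of them. Control libraries held 74 old and 19 young CD4 T cells, HU libraries 12 old and 2 young, and reload libraries 10 old and 19 young. These were 2.81% of 2631 kept cells in old control muscle (exact binomial 95% interval 2.21 to 3.52%) and 1.18% of 1605 in young control muscle (0.714 to 1.84%). In HU muscle they were 0.635% of 1890 old cells (0.328 to 1.11%) and 0.132% of 1518 young cells (0.016 to 0.475%). In reload muscle they were 0.412% of 2425 old cells (0.198 to 0.757%) and 0.775% of 2451 young cells (0.467 to 1.21%). The old control interval lay above those of all 5 other libraries. The intervals cover counting error only, since each share comes from 1 pool. A share among sorted CD45+ cells also moves with every other cell type in the sort. Kept cells with at least 1500 UMIs were also thinned to 1500 before the rule was applied, and shallower cells were left out. Among those cells, a smaller set than all kept cells, the old control share was 1.37% and the young control share 0.432%.

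**Figure D1:**
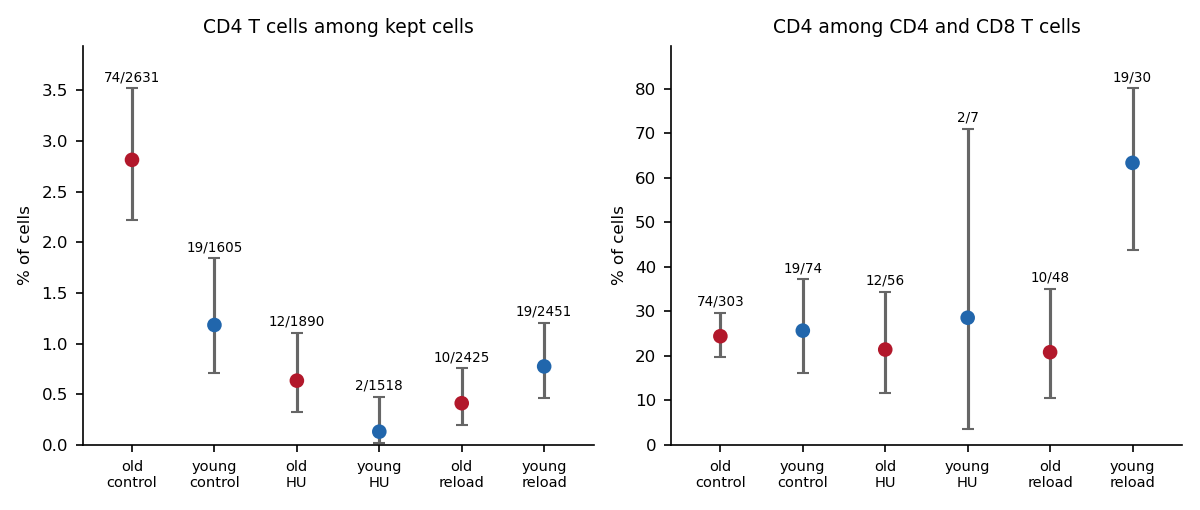
CD4 T cells in each of the 6 libraries, as a percent of all kept cells and as a percent of CD4 and CD8 T cells together, with exact binomial 95% intervals and 1 library per point. The old control library held the highest share of kept cells, 2.81%, and young reload the highest share of the CD4 and CD8 pool, 63.3%.

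Set against CD8 T cells, the CD4 share had overlapping intervals in 5 libraries. The rule takes CD4 T cells on 1 gene and CD8 T cells on either of 2, so depth does not touch both alike. CD4 T cells made up 24.4% of the CD4 and CD8 cells in old control muscle (19.7 to 29.7%) and 25.7% in young control muscle (16.2 to 37.2%). They were 21.4% in old HU (11.6 to 34.4%), 28.6% in young HU (3.67 to 71.0%) and 20.8% in old reload muscle (10.5 to 35.0%). In young reload muscle they were 63.3% (43.9 to 80.1%), from 19 CD4 and 11 CD8 T cells. The young reload interval did not overlap those of old reload, old HU and either control. With the rule applied to thinned cells, the share was 57.9% in young reload muscle (33.5 to 79.7%, 11 of 19 cells) and 22.2% in old reload muscle (8.62 to 42.3%, 6 of 27 cells), and these intervals overlapped. It was 19.2% in old control muscle (13.6 to 25.9%, 33 of 172 cells) and 26.1% in young control muscle (10.2 to 48.4%, 6 of 23 cells). The plot of CD4 shares by library shows both measures.

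Depth set what could be seen. CD4 T cells carried a median of 3200 UMIs in old control, 4238 in young control, 2443 in old HU, 2405 in young HU, 3096.5 in old reload and 2716 in young reload muscle. Summed over cells, the libraries gave 4810 (young HU) to 311065 (old control) CD4 UMIs. The 2 young HU cells alone are the young HU value everywhere below, and 1 cell gave 51.8% of its UMIs. Old and young control libraries shared 41 cell barcodes, and other pairs of libraries shared 5 to 17. Of the CD4 T cells, 4 had a barcode seen in another library, none of them as a CD4 T cell there. The title prefix in the labels differed between the 3 treatments, and the run named in the description differed between the control libraries and the rest, so treatment and these cannot be told apart. Old and young libraries of a treatment shared both. The paper gives the University of Utah as the source of young mice and the National Institute on Aging as that of old mice. Age and source therefore cannot be told apart.

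RNA of other cell types in these cells was as follows. Of 13 genes of the natural killer T and innate-like list, 1 to 5 were seen per library, with 49 and 4 UMIs in old and young control, 1 and 9 in old and young HU, and 2 and 16 in old and young reload cells. Its defining genes Zbtb16, Klrb1c and Ncr1 were at 0 in all 6 libraries. The list of type 2 innate lymphoid cells (ILC2), which shares Areg, Gata3, Rora and the type 2 cytokines with T cells, gave 145 and 64 UMIs in old and young control, 51 and 0 in old and young HU, and 25 and 78 in old and young reload cells. That was 1638 CPM in old HU CD4 T cells against 488 CPM in the other kept cells there. CD4 T cells also lay above the other kept cells in young reload (1220 against 188 CPM) and old reload muscle (833 against 248 CPM). They lay below them in old control (466 against 661 CPM), young control (805 against 888 CPM) and young HU muscle (0 against 167 CPM). The part of ILC2 in the results was not tested. The neutrophil list gave 0 to 5 UMIs per library. The dendritic cell list gave 1010 UMIs in old control and 0 to 10 elsewhere, and 512 of 530 Cd74 UMIs there were in 1 cell. The macrophage list gave 238 and 113 UMIs in old and young control, 60 and 1 in old and young HU, and 22 and 66 in old and young reload cells. That was 765 and 1421 CPM in old and young control, 1927 and 208 CPM in old and young HU, and 733 and 1033 CPM in old and young reload cells.

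The first question was which genes set CD4 T cells apart from CD8 T cells of the same muscle. They carried more RNA of T cell help, costimulation and regulation, and much less of the cytotoxic programme. CD4 and CD8 sums of the 6 libraries were compared with edgeR's quasi-likelihood test with the library as a block, over 2446 genes with at least 10 UMIs in at least 3 sums. It called 146 genes (5.97%) at a Benjamini-Hochberg adjusted p under 0.05. Of these, 60 were higher in CD4 T cells (2.45%) and 86 lower (3.52%). Cd4, Cd8a and Cd8b1 are among them only through the rule, which leaves 59 higher and 84 lower. The split depended on scaling. With total UMIs in place of TMM factors, 93 were higher and 42 lower, and the median over all genes was 0.16 against -0.04 (log2). DESeq2 gave 46 higher and 94 lower.

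The surface molecules of help and costimulation stood far above the CD8 level. Tnfsf11, the ligand RANKL that drives osteoclast formation, ranged over libraries from 0 to 996 UMIs per 1000000 UMIs of a sum (CPM) in CD4 T cells (median 124) and from 0 to 12.7 CPM in CD8 T cells (median 0). It rose in CD4 against CD8 T cells by 5.64 (log2, SE 0.51, edgeR adjusted p = 9.42e-10) and was higher in 5 pairs, with both sums of young HU at 0. Cd40lg, the ligand through which helper T cells license B cells and dendritic cells, ranged from 0 to 333 CPM (median 143) in CD4 T cells, against 0 to 14.1 CPM (median 0) in CD8 T cells. Its difference was 4.00 (SE 0.49, adjusted p = 5.31e-07). Tnfrsf4, the costimulatory receptor OX40, ranged from 0 to 735 CPM (median 162), against 0 to 13.2 CPM (median 0), a difference of 4.06 (SE 0.44, adjusted p = 3.31e-08). All 3 genes were at 0 in the 2 young HU cells, so the CD4 and CD8 ranges meet there and nowhere else.

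Icos, a costimulatory receptor of helper cells, was detected in every CD4 sum, at 133 to 798 CPM (median 346), against 6.8 to 275 CPM (median 75.5) in CD8 T cells. The edgeR difference was 2.09 (SE 0.32, adjusted p = 2.87e-05), and all 6 pairs agreed in direction. An Icos UMI was seen in 69 of 136 CD4 T cells and 69 of 382 CD8 T cells, and in 0 of 399 B cells, which should lack it. Thinned to 1500 UMIs, the Icos shares were 35.7% of 129 CD4 and 7.85% of 331 CD8 T cells. Ctla4, the inhibitory receptor that competes for the same ligands as Cd28, ranged from 110 to 333 CPM (median 198), against 6.8 to 84.5 CPM (median 21.2), so the 2 cell types did not overlap. Its difference was 2.85 (SE 0.41, adjusted p = 9.33e-06). Over all genes tested, CD4 sums lay wholly above CD8 sums for 0.777% and wholly below for 0.45%. Cd28 itself differed by 0.85 (SE 0.22, adjusted p = 0.0168). Cd5, a brake on receptor signalling, also did not overlap, at 161 to 624 CPM against 34.0 to 99.1 CPM, a difference of 1.73 (SE 0.29, adjusted p = 0.00013).

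Of 10 tested genes of the regulatory T cell list 6 were higher in CD4 T cells and none lower, with a median difference of 1.31 beside -0.04 over all genes. These were Icos, Ctla4, Tnfrsf4, Areg, the actin-capping protein Capg and Tnfrsf18, the receptor GITR, the last with 1.42 (SE 0.34, edgeR adjusted p = 0.00757). Most of these genes are shared with activated helper cells. The call of Capg was lost in 5 of 10 alternatives, DESeq2 among them, and that of Tnfrsf18 in 1 of 17. Foxp3 itself, the defining gene, was too low to test. Its 13 UMIs were in 6 of 136 CD4 T cells (4 in old control, 1 in young control and 1 in old HU), and 0 of 10 old reload and 0 of 19 young reload cells held one. By the exact binomial interval, the old reload result allows a share of up to 30.8% and the young reload result 17.6%. A Foxp3 UMI was seen in 2 of 382 CD8 T cells and 1 of 399 B cells. No library reached 5 Foxp3-positive CD4 T cells, and those cells were not compared with the rest.

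Areg, the growth factor named above, was called at 3.57 (SE 0.49, edgeR adjusted p = 4.77e-06), with 0 to 707 CPM in CD4 T cells (median 96.4) and 0 to 10.4 CPM (median 5.5) in CD8 T cells. Few cells made up the Areg level, since 20 of 22 UMIs in old HU and 20 of 26 in young reload came from 1 cell each. Among regulators of transcription, Maf differed by 2.16 (SE 0.42, adjusted p = 0.000877), Bhlhe40 by 1.83 (SE 0.32, adjusted p = 0.000219), Gata3 by 1.81 (SE 0.38, adjusted p = 0.00229) and Rora by 1.23 (SE 0.28, adjusted p = 0.00587). Gata3 directs type 2 helper cells and Rora type 17 helper and innate lymphoid cells, and both are also used by other T cells. The cytokines that define those subsets were nearly undetected, with an Il5 UMI in 3 of 136 cells, Il13 in 3, Il4 in 1 and Il17a in 1, and with Il21 at 0. For a single CD4 T cell library such a 0 bounds little, and it limits cells with a captured UMI, not cells that express the gene.

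The effector memory and residency list had 5 of 22 tested genes higher and none lower, with a median of 0.49. These were Itgb1, Itgb7, S100a4, S100a11 and Crip1. S100a4 lost its call in 7 of 17 alternatives and S100a11 in 8 of 17, DESeq2 among them for both, and Crip1 lost it without old reload (adjusted p = 0.0648). Itgb7 and Itgb1, integrin chains used in homing and adhesion, differed by 0.93 (SE 0.23, edgeR adjusted p = 0.011) and 0.94 (SE 0.24, adjusted p = 0.0145). The naive and central memory list gave 0 of 16 higher and 1 lower, with a median of 0.00. Ccr7 differed by -0.84 (adjusted p = 0.0853) and Il7r by 0.05 (adjusted p = 0.985), neither of them called.

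The cytotoxic list carried the other direction, with 10 of 14 tested genes lower, none higher and a median of -1.88. Gzma, a serine protease of killer cell granules, was at 0 in 5 of 6 CD4 sums and reached 32.1 CPM in the other, against 0 to 845 CPM (median 486) in CD8 T cells. It fell by 4.84 (SE 0.42, edgeR adjusted p = 3.75e-10). Klrd1, an inhibitory receptor chain of killer cells, ranged from 0 to 46.9 CPM, against 135 to 217 CPM, without overlap. Its difference was -3.38 (SE 0.43, adjusted p = 1.19e-06). Ccl5, a chemokine of effector T cells, ranged from 0 to 7262 CPM (median 1508), against 4779 to 17428 CPM (median 12783). Its difference was -3.15 (SE 0.38, adjusted p = 4.58e-07) with all 6 pairs lower, while the ranges overlapped because old control CD4 T cells held more Ccl5 than young control CD8 T cells.

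Ccl4, Nkg7, Ctsw, Gzmb, Klrk1, Eomes and Cst7 completed the lower cytotoxic genes. The call of Eomes was lost in 6 of 14 alternatives, that of Klrk1 in 3 of 16 and that of Gzmb in 1 of 17, DESeq2 among them for each. Nkg7, a granule membrane protein, fell by 1.72 (SE 0.27, edgeR adjusted p = 4.28e-05), and the chemokine Ccl4 by 3.09 (SE 0.42, adjusted p = 3.95e-06). Outside that list Ly6c2, a surface marker of memory CD8 T cells, fell by 3.84 (SE 0.36, adjusted p = 9.42e-10) and the granzyme Gzmm by 4.45 (SE 0.68, adjusted p = 2.48e-05). Nkg7, Gzmb, Klrk1 and Ly6c2 were each higher in CD4 T cells in 1 of the 6 pairs. Cd7, Fcgrt, Sh3bp5, Txk, Gtf2i and Ywhaq were lower in CD4 T cells in all 6 pairs, with differences of -2.84 (Fcgrt) to -0.95 (Ywhaq). The call of Ywhaq was lost in 9 of 17 alternatives, DESeq2 among them, that of Gtf2i in 4 of 16 and that of Sh3bp5 in 2 of 9. Higher in all 6 were also Samsn1, Phlda1, Odc1 and Map2k3. The MHC class I list (13 genes), the oxidative phosphorylation list (25) and the cell cycle list (11) had no called gene. Ribosomal protein genes were lower in 45 of 80, but in 15 of 80 with total-UMI scaling and in 59 of 80 with DESeq2. Among the lists of other cell types, Cxcl2 and Selenop of the macrophage list were higher in CD4 T cells, and 77 of 82 Cxcl2 UMIs in young control and 43 of 44 in old HU muscle were in 1 cell each. The call of Cxcl2 was lost in 7 of 15 alternatives and that of Selenop in 6 of 14, DESeq2 among them for both.

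**Figure D2:**
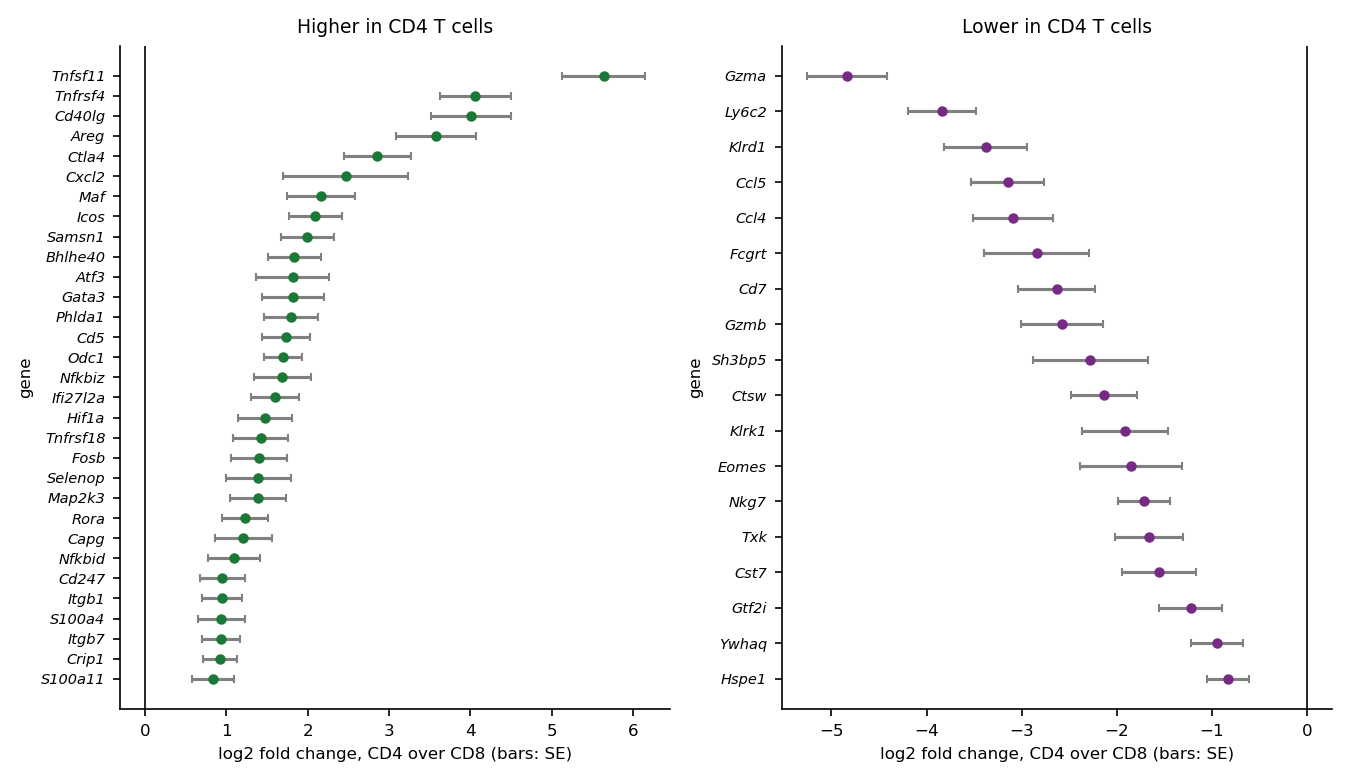
Difference of CD4 from CD8 T cells in log2 units with its standard error, for called genes of the lists and of the naming rule, from edgeR over 6 CD4 and 6 CD8 sums. Tnfsf11 (5.64), Tnfrsf4 (4.06) and Cd40lg (4.00) lie farthest to the right and Gzma (-4.84) among the farthest to the left.

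The plot of CD4 and CD8 differences orders these genes by size. Which share of single cells carried them is given by the dot plot of detection, in which each library has a row and the smallest dots stand for 0%. Il7r, the interleukin 7 receptor that keeps resting T cells alive, was seen in 74 of 136 cells, Rora in 65, Tigit in 61, Tnfrsf4 in 48, Lef1 in 43, Ccr7 in 34, Gata3 in 34, Cxcr3 in 26 and Tbx21 in 22. In B cells, the Tigit, Lef1, Gata3 and Cxcr3 shares were 1, 3, 0 and 4 of 399, at medians of 1766.5 (young HU) to 3996.5 (young control) UMIs per cell. Ccr7 was seen in 245 of 399 B cells, which use it too, so its CD4 share has no background here. Eomes (12 cells) and Lag3 (7 cells) were seen in old control cells alone, the library with most cells.

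**Figure D3:**
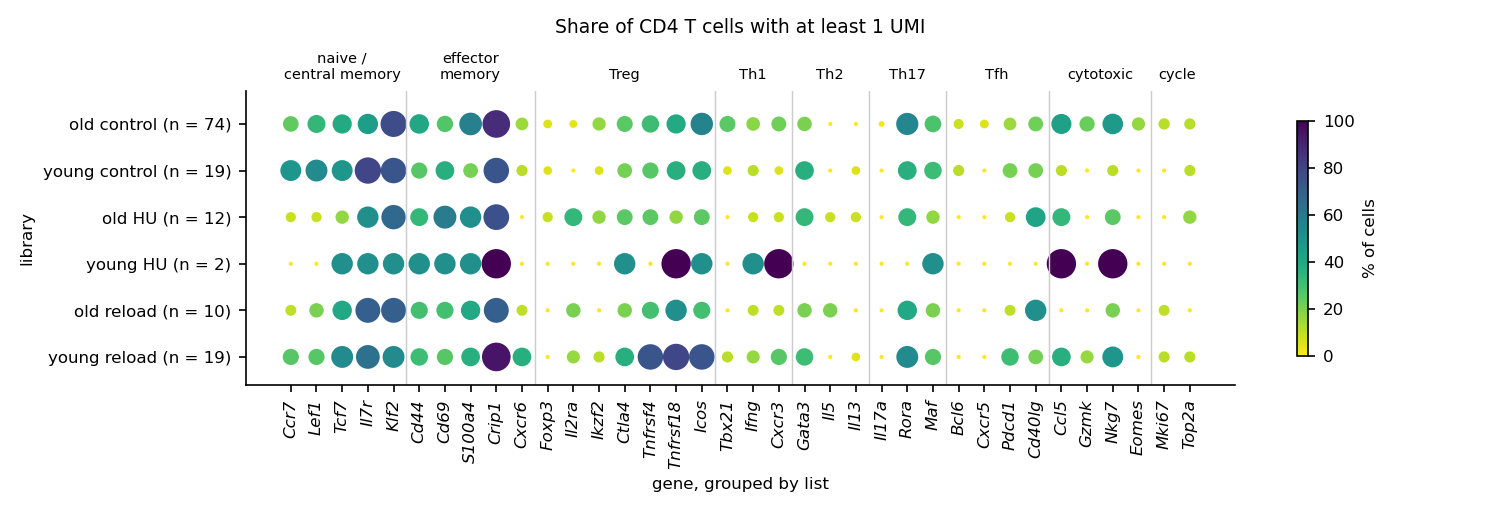
Percent of CD4 T cells of each library with at least 1 UMI of each gene, by list, with dot size and colour both giving the percent. Ccl5 was seen in 43.2% of 74 old control cells and in 0% of 10 old reload cells, and the young HU row rests on 2 cells.

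The second question was how CD4 T cells of old and young muscle differed. Over the 6 CD4 sums, 779 genes could be tested with age and treatment as terms, which left 2 residual degrees of freedom. In edgeR a gene's own spread was weighed with that over all genes, which carried 103.9 prior degrees of freedom. The p-values thus rest mostly on the spread over all genes. Only 1 gene was called (0.128%), Crip1, which encodes a small zinc-binding LIM domain protein known from effector and memory lymphocytes. Crip1 stood at 5735 CPM in old and 1421 CPM in young control cells, at 9636 CPM in old and 2287 CPM in young HU cells, and at 9259 CPM in old and 3035 CPM in young reload cells. All 3 old libraries lay above all 3 young ones, which was so for 4.24% of the genes tested, and below for 4.11%. The edgeR difference was 2.01 (log2, SE 0.35, adjusted p = 5.92e-05), with 3 of 3 pairs higher. DESeq2 also called it (adjusted p = 0.00131). With any 1 library left out the difference was 1.71 to 2.06 and the adjusted p 0.0698 to 0.997, so the call did not hold there. Nor did it hold without both HU libraries (1.91, adjusted p = 0.9998) or without the filter on low counts (2.13, adjusted p = 0.514).

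Crip1 was seen in 65 of 74 old and 14 of 19 young control cells, in 9 of 12 old and 2 of 2 young HU cells, and in 7 of 10 old and 18 of 19 young reload cells. The median cell held 39.2 Crip1 UMIs per 10000 in old control against 5.7 in young control, 47.8 in old against 23.4 in young HU, and 34.4 in old against 16.7 in young reload. The median was thus higher in old cells at every stage. A single cell held 149 of the 278 old reload UMIs, and the largest young reload cell 42 of 194.

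In CD8 T cells the same fit gave 0.96 (SE 0.24, adjusted p = 0.999) for Crip1, from 3264 CPM in old and 1530 CPM in young control cells, 2017 and 1037 CPM in old and young HU cells, and 2459 and 1457 CPM in old and young reload cells. The 3 old CD8 libraries likewise lay above the 3 young ones. The age difference of CD4 minus that of CD8 T cells was 1.03 (SE 0.40, edgeR adjusted p = 0.918) and was not called, so the CD4 and CD8 age differences in Crip1 were not shown to differ. Of 2446 genes in that test, 5 were called (0.204%). All other kept cells together held 6043 CPM of Crip1 in old and 8256 CPM in young control, 8367 and 6155 CPM in old and young HU, and 7597 and 5974 CPM in old and young reload muscle. There, control muscle went the other way. The part of RNA from those cells in the CD4 levels was not tested.

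Crip1 belongs to the effector memory and residency list, which had 18 of 25 genes measured well enough for the age test. Crip1 was the only one called, 13 lay above 0, and the median was 0.28 beside 0.06 over all genes tested. S100a6, a calcium-binding protein often found beside Crip1 in memory cells, stood at 2244 CPM in old and 478 CPM in young control, 2795 and 2079 CPM in old and young HU, and 2365 and 1549 CPM in old and young reload cells. Its difference of 1.27 was not called (edgeR adjusted p = 0.51). S100a11, at 1369 and 239 CPM in old and young control, 1349 and 832 CPM in old and young HU, and 999 and 892 CPM in old and young reload cells, differed by 1.32 (adjusted p = 0.82). For both, the order of old above young held in each pair, with the widest gap in control muscle. S100a4 did not keep it, with 733 and 126 CPM in old and young control, 482 and 208 CPM in HU, and 300 and 360 CPM in reload cells.

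The 250 bases before the start sites of Crip1, the called gene, and of the 3 S100 genes set beside it are shown (RefSeq, GRCm38.p6, 5′ to 3′ on the gene's strand). Capitals mark matches to the core of a GC box, spelled GGGCGG. They also mark matches to the binding site of the AP-1 factors, spelled TGANTCA. The last motif marked is the TATA box, spelled TATAAA, and all were searched on both strands.
Crip1 promoter, chr12:113151762-113152011 (+): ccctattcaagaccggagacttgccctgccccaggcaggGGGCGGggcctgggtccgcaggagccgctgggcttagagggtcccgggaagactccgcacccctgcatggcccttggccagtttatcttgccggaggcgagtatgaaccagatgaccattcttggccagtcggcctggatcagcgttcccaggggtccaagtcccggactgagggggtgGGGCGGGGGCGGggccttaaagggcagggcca
S100a4 promoter, chr3:90603520-90603769 (+): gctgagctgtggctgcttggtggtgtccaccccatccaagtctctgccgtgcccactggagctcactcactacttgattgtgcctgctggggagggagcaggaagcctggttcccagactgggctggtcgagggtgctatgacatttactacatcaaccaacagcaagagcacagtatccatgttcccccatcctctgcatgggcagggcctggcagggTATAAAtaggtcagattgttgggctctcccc
S100a6 promoter, chr3:90612644-90612893 (+): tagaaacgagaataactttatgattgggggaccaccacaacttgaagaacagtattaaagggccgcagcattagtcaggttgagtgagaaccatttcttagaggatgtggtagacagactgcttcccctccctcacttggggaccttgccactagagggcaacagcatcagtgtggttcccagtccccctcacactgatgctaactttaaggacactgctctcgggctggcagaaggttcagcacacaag
S100a11 promoter, chr3:93520246-93520495 (+): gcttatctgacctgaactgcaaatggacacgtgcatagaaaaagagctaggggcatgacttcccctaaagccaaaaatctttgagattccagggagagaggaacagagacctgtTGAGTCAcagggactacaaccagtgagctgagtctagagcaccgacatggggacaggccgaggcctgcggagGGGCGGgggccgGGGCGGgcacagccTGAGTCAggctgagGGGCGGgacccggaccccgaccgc

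Crip1 and S100a11 each held 3 GC box matches, S100a11 also 2 AP-1 matches and S100a4 1 TATA box match, while S100a6 held none of the 3 motifs. Over 32851 promoters of the same length, 32.7% held a GC box, 6.75% an AP-1 site and 12.4% a TATA box. The 4 genes thus share no one of these motifs, and a match is a description of letters, not a bound site. In the mm10 annotation Crip1 is at chr12:113146316-113153879, S100a4 at chr3:90603771-90606045, S100a6 at chr3:90612882-90624181 and S100a11 at chr3:93520488-93526287, all on the plus strand. The RefSeq start sites differ from these ends where the annotations use other transcripts.

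**Figure D4:**
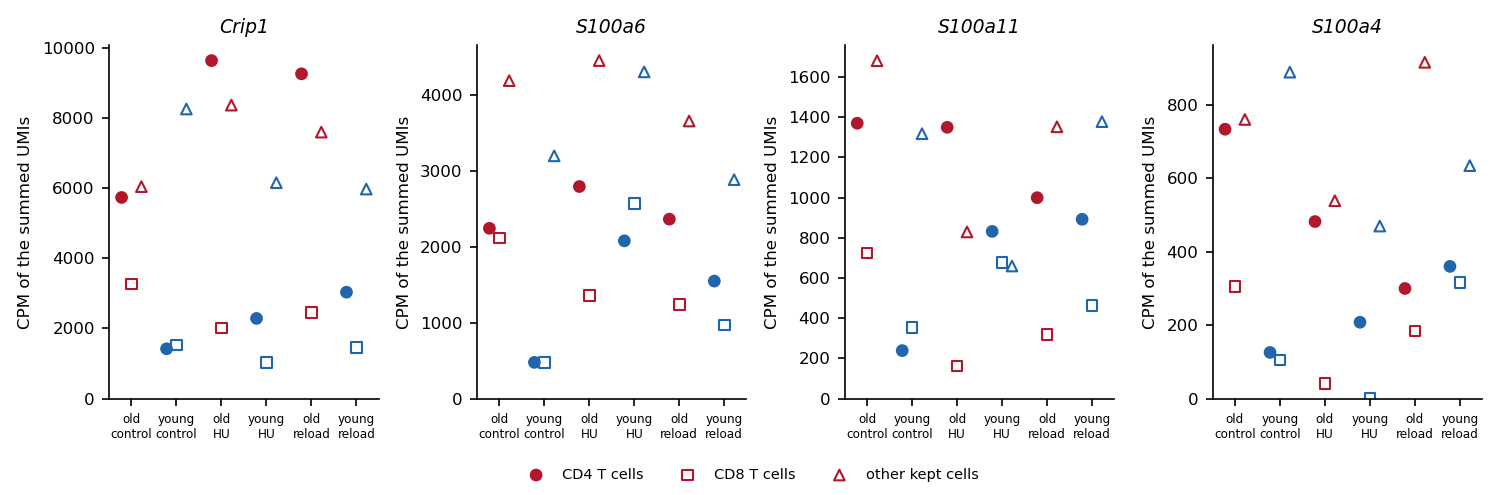
CPM of Crip1, S100a6, S100a11 and S100a4 in CD4 T cells, CD8 T cells and all other kept cells of each library, with old libraries in red and young in blue and 1 library per point. Crip1 in CD4 T cells was 9636 and 2287 CPM in old and young HU, and 9259 and 3035 CPM in old and young reload muscle.

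No gene was called lower in old CD4 T cells. At an unadjusted p under 0.05 there were 13 higher and 2 lower genes, and DESeq2 called 1 higher and 0 lower. Tnfsf11 (1.96, edgeR adjusted p = 0.82), Fosb (1.86) and Rgcc (1.47) had larger differences than many and were not called.

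Control muscle, the only treatment with more than 12 CD4 T cells at both ages, let more genes be compared between 1 old and 1 young pool. A gene was counted where the 2 sums together held at least 50 UMIs and the CPM differed at least 2-fold. Of 968 such genes, 172 were past that size (17.8%), 136 of them higher in old cells (14%) and 36 lower (3.72%). Intervals below are exact 95% intervals of the ratio of 2 Poisson counts and hold counting error within these 2 pools only.

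The effector memory list had 12 of 21 genes at least 2-fold higher in old control cells and none lower, with a median log2 ratio of 1.60, beside 0.17 over all 968. Crip1 was at 2.01 (1.74 to 2.30), S100a4 at 2.54 (1.64 to 3.62), S100a6 at 2.23 (1.76 to 2.74) and Lgals1, a galectin of activated lymphocytes, at 2.13 (1.66 to 2.64). The cytotoxic and Ccl5 list had 4 of 5. Ccl5 gave 2259 UMIs in 32 of 74 old cells and 91 UMIs in 2 of 19 young cells, 85 of them in 1 cell, a log2 ratio of 2.67 (2.36 to 2.98). Gzmk, a granzyme of memory T cells, gave 124 UMIs in 17 of 74 old cells and 0 in 19 young cells, which is at least 10.6-fold higher with the 3-UMI limit that a count of 0 allows in the young library. Nkg7 gave 209 and 3 UMIs in old and young cells, at 4.15 (2.59 to 6.44), and Ctla2a, a protease inhibitor of activated T cells, 91 and 2 UMIs, at 3.54 (1.65 to 6.61). Tigit, an inhibitory receptor of memory and regulatory T cells, gave 140 UMIs in 44 of 74 old cells and 7 in 4 of 19 young cells, at 2.35 (1.27 to 3.69). Capg, Dbi, Lgals3 and Stmn1 were also higher. Control CD8 T cells had the same order for Ccl5 and Gzmk. Their Ccl5 gave 18457 UMIs in 197 of 229 old and 1292 UMIs in 34 of 55 young CD8 T cells. Their Gzmk gave 299 UMIs in 68 old and 8 UMIs in 5 young CD8 T cells, from sums of 1059045 and 236674 UMIs.

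Of the naive and central memory list 3 of 11 genes were at least 2-fold lower in old control cells and none higher, with a median of -0.72. These were Lef1, a transcription factor of naive T cells, with 39 and 29 UMIs in old and young cells at -1.54 (-2.27 to -0.80), Satb1 at -1.12 (-1.74 to -0.48) and Il7r at -1.05 (-1.65 to -0.42). Ccr7 was just short of the 2-fold size at -0.99 (-1.64 to -0.32), and Klf2 differed by -0.34.

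Genes of the heat shock response were also among those lower in old control cells. In the immediate early and heat shock list 9 of 23 were lower and none higher, with a median of -0.52. Hspa1a gave 20 UMIs in 10 of 74 old cells and 226 in 6 of 19 young cells, 147 of them in 1 cell, at -5.47 (-6.21 to -4.81). Its near-identical neighbour Hspa1b (8 and 50 UMIs, -4.61), with which it may share reads, and Hsph1 (26 and 80 UMIs, -3.59) went the same way. Hsp90aa1 gave 192 UMIs in 61 old cells and 285 in 16 young cells, at -2.54 (-2.81 to -2.27). All other kept cells moved with them, at 289 CPM of Hspa1a in old and 3473 CPM in young control muscle. Rps29, a ribosomal protein, was 2090 CPM in old and 9007 CPM in young control cells, but 7427 CPM in old and 2425 CPM in young reload cells.

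Within old control muscle the cells with a Ccl5 UMI carried most UMIs of Gzmk, Eomes, Nkg7 and Ifng, but not of every effector or activation gene. Of 32 cells with Ccl5, Gzmk was seen in 16, Eomes, a transcription factor of cytotoxic and memory cells, in 12, Nkg7 in 26 and Ifng in 10. Of the 42 cells without Ccl5, Gzmk was seen in 1, Eomes in 0, Nkg7 in 8 and Ifng in 3. Ccr7 was seen in 3 of the 32 and in 15 of the 42, Lef1 in 11 of the 32 and 14 of the 42, and all 4 cells with Foxp3 were among the 42. Tigit was seen in 22 of each, Tbx21 in 10 of the 32 and 9 of the 42, and Cxcr3 in 8 of each. Icos was at 205 CPM in the cells with and 648 CPM in the cells without Ccl5. Ctla4 (95.2 and 258 CPM) and Tnfrsf4 (110 and 224 CPM) had the same order. Crip1 was high in both classes, at 6531 CPM in the cells with and 5112 CPM in the cells without Ccl5. The cells come from 1 library and were divided by a measured gene, so these are a description, at median depths of 3077 and 3571.5 UMIs. In the B cells of that library, which should lack Ccl5, it was seen in 11 of 202.

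**Figure D5:**
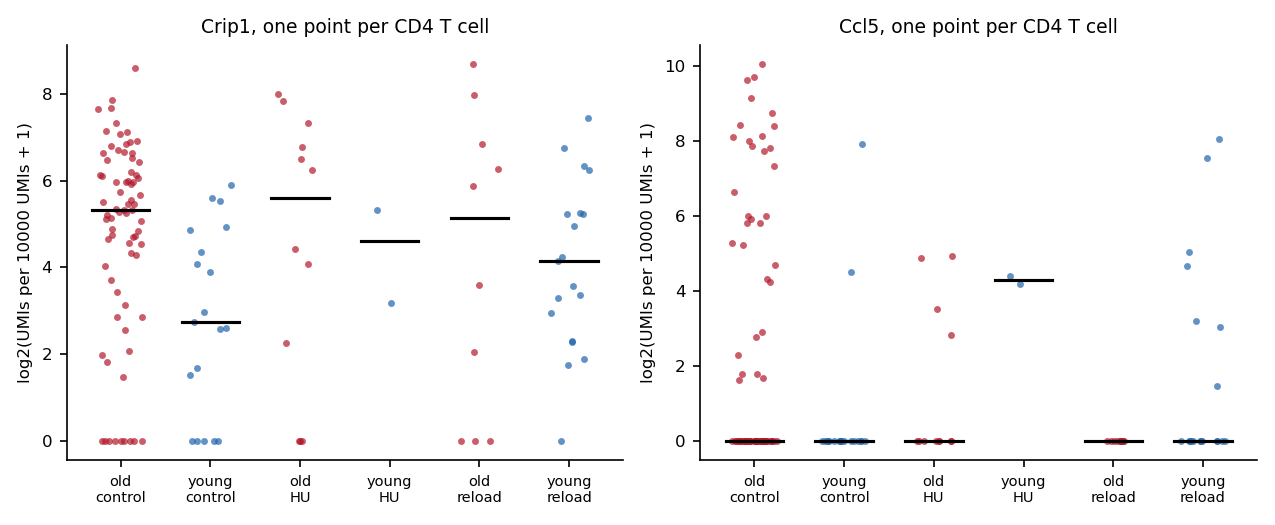
Crip1 and Ccl5 in each CD4 T cell of the 6 libraries, as log2 of UMIs per 10000 plus 1, with a line at the library's median. The median Crip1 level was 39.2 per 10000 in old and 5.7 in young control cells, while the median of Ccl5 was 0 in old control cells, 42 of which held none.

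The plot of single cells shows that Ccl5 was carried by some cells of a library and Crip1 by most. In HU muscle, with 12 old and 2 young cells, 125 genes had 50 UMIs, of which 11 were higher (8.8%) and 3 lower (2.4%) in old cells (11.2% together). Crip1 was at 2.08 (1.21 to 3.09) and Rgcc, a cell cycle regulator, at 3.03 (0.49 to 8.36), from 53 UMIs in the old and 1 in the young library.

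In reload muscle several activation genes were lower in old cells, with 8 genes higher (3.15%) and 24 lower (9.45%) in old cells among 254 (12.6% together). Ccl5 gave 0 UMIs in 10 old cells and 136 in 7 of 19 young cells, 72 of them in 1 cell, so that young cells were at least 21.3-fold higher. Icos gave 4 UMIs in 3 of 10 old cells and 51 in 14 of 19 young cells, a log2 ratio of -2.58 (-4.51 to -1.14). Tnfrsf4 gave 4 UMIs in 3 of 10 old cells and 47 in 14 of 19 young cells, at -2.46 (-4.40 to -1.01). Tnfrsf18 gave 6 and 44 UMIs in 5 of 10 old and 15 of 19 young cells, at -1.78 (-3.31 to -0.55). In young reload muscle Tnfrsf4 and Icos were at 735 and 798 CPM, the highest of the 6 CD4 sums for each. Ly6a, an interferon-induced surface protein, and Ctla2a were likewise lower in old reload cells, with 3 and 4 UMIs in old and 51 and 57 in young cells. The T cell activation list had 2 of 3 genes at least 2-fold lower and none higher. Ctla4, with too few UMIs to be counted, went the other way. It was at 333 CPM in old reload cells, and at 184 and 54.4 CPM in young reload cells with and without Ccl5. Crip1 remained higher in old cells, at 1.61 (1.34 to 1.88), and Rgcc was also higher, at 1.49 (0.78 to 2.22), with 19 of 41 old reload UMIs in 1 cell. None of these differences was tested, with 1 pool per group.

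The third question was how CD4 T cells differed with unloading and reloading. With age as a term, edgeR called 1 of 779 genes between reload and HU (0.128%). This was Lars2, the mitochondrial leucyl-tRNA synthetase, at 1694 CPM in old and 1711 CPM in young control cells, 418 and 624 CPM in old and young HU cells, and 7727 and 3380 CPM in old and young reload cells. It rose in reload against HU cells by 3.68 (SE 0.57, adjusted p = 2.22e-06). In old reload muscle, 181 of the 232 Lars2 UMIs were in 1 cell, and in young reload muscle 110 of 216. The call was lost after thinning (3.25, adjusted p = 0.176) and without any 1 library other than young control (adjusted p 0.0525 to 0.796). All other kept cells followed the same order, with 2277 and 1686 CPM in old and young reload muscle, against 627 and 750 CPM in old and young HU muscle, and the part of other cells' RNA in the CD4 levels was not tested. No gene was called lower. At an unadjusted p under 0.05 there were 33 higher and 13 lower genes, and DESeq2 called 1 higher and 0 lower.

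Gm42418, whose sequence overlaps ribosomal RNA genes, was not called between reload and HU (1.42, edgeR adjusted p = 0.18), but stood at 41434 CPM in old reload and 5461 CPM in old HU cells, with 533 of 1244 old reload UMIs in 1 cell. In the 2 young HU cells it was far above old HU, at 25572 CPM, with 105 of 123 UMIs in 1 cell. Zfp36l2, an RNA-binding protein that promotes decay of activation transcripts, missed the threshold at an adjusted p of 0.056. Its old reload sum held 333 CPM and its old HU sum 1638 CPM. The MHC class I list had 9 of 9 genes above 0 between reload and HU, against 454 of all 779 genes, with a median of 0.85 beside 0.14 over all genes and no gene called. In young muscle, where HU is 2 cells, 4 of 5 were at least 2-fold higher in reload cells (median 1.88), beside 44 of all 205 genes (21.5%). In old muscle 0 of 3 were (median 0.42), beside 8 of all 170 genes (4.71%). Between HU and control, 0 of 9 lay above 0, with a median of -0.77, beside 336 of all 779 genes and a median of -0.10. Both contrasts use the same HU sums, so the 2 results are not independent of each other.

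Between HU and control, edgeR again called 1 of 779 genes (0.128%). Vim, the intermediate filament vimentin of mobile leukocytes, rose by 1.94 (SE 0.46, adjusted p = 0.0413), from sums of 4529 CPM in old and 9356 CPM in young HU cells, against 2421 CPM in old and 818 CPM in young control cells. The young HU value is 45 UMIs in 2 cells, 29 of them in 1. DESeq2 called no gene, and without young HU the Vim difference was 1.28 (adjusted p = 0.989) and without young control 0.92 (adjusted p = 0.392). Without old control it was 3.27 (adjusted p = 0.0609). At an unadjusted p under 0.05 there were 21 higher and 40 lower genes.

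The HU and control sums of old muscle, 12 and 74 cells, gave 856 genes with 50 UMIs, of which 59 were higher (6.89%) and 138 lower (16.1%) in HU cells (23% together). Fos, a subunit of the AP-1 transcription factor, gave 31 UMIs in 6 of 12 HU cells and 48 in 19 of 74 control cells, a log2 ratio of 2.69 (1.99 to 3.37). Tnfsf11 gave 31 UMIs in 5 of 12 HU cells, 19 of them in 1 cell, and 46 in 15 of 74 control cells, at 2.75 (2.05 to 3.44). Socs1, an inhibitor of cytokine signalling, was at 2.66 (1.86 to 3.43), Phlda1 at 2.27 (1.56 to 2.94) and Zfp36, an RNA decay factor, at 2.20 (1.66 to 2.72). In old HU cells 31 of 45 Zfp36 UMIs, 14 of 28 Phlda1 UMIs and 9 of 24 Socs1 UMIs were in 1 cell. The immediate early and heat shock list had 9 of 20 higher and 5 lower, with a median of 0.76, and the T cell activation list 4 of 10 higher and 2 lower.

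Ccl5 was lower in old HU than old control cells by this measure, with 16 UMIs in 4 of 12 HU cells against 2259 in 32 of 74 control cells, at -3.82 (-4.63 to -3.11). Gzmk gave 0 UMIs in old HU cells, which leaves control cells at least 4.14-fold higher. Satb1 was also at 0 there, against 63 UMIs in old control cells. Zfp36 and Nr4a1, an early gene induced by receptor signalling, were lower again in old reload than in old HU cells, at -2.44 (-3.74 to -1.34) and -1.97 (-2.93 to -1.11). Of the old HU UMIs, 31 of 45 for Zfp36 and 26 of 57 for Nr4a1 were in 1 cell. These are among 170 genes of which 8 were higher (4.71%) and 12 lower (7.06%), 11.8% together. In young muscle the 2 HU cells gave 205 genes in each comparison, with 15 higher (7.32%) and 55 lower (26.8%) in HU against control cells, 34.1% together, and 44 higher (21.5%) and 13 lower (6.34%) in reload against HU cells, 27.8% together. The log2 ratio of Vim was 3.52 (2.93 to 4.09) for HU over control and -1.71 (-2.19 to -1.20) for reload over HU.

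Receptor gene segments gave a check on how varied the cells were. A Trbv segment, the variable part of the receptor beta chain, was seen in 64 of 74 old and 16 of 19 young control cells, in 7 of 12 old and 0 of 2 young HU cells, and in 7 of 10 old and 18 of 19 young reload cells. Old control cells used 19 segments, and Trbv13-2, the most frequent, was in 15 cells. In young control muscle Trbv3 was the most frequent, in 4 cells, and in young reload muscle Trbv20, also in 4. Of Trbc1 and Trbc2 UMIs, the 2 constant regions of the beta chain, Trbc1 made up 24.2% in old control (exact binomial 95% interval 18.5 to 30.6%) and 19.0% in young control cells (8.60 to 34.1%). Between CD4 and CD8 T cells, Trbv1 was higher by 2.31 (SE 0.51, edgeR adjusted p = 0.00454) while Trbv12-1 fell by 4.75 (SE 0.83, adjusted p = 0.000235). Trbv12-1 gave 1 UMI in the CD4 T cells of all 6 libraries and 113 in CD8 T cells. The segments are similar in sequence, and reads may have been divided between them.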

How the data were processed

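The deposited values are raw UMI counts per gene and cell, which the authors made from 10x Genomics reads. The submitters' processing notes name Cell Ranger 3.1.0, Seurat and the mm10 build. Each of the 6 libraries was 1 file of counts. Cells with at least 200 genes and at most 10% mitochondrial UMIs were kept (12520 of 15467 barcodes). CD4 T cells were taken by the rule above, and doublets were marked by scrublet (scanpy 1.11.5) but left in, since 1 CD4 T cell was marked. Counts were summed per library and cell type and tested in R 4.3.3 with edgeR 4.0.16 (quasi-likelihood, TMM factors, Benjamini-Hochberg adjustment), with age and treatment as terms for 3 contrasts, or with the library as a block for CD4 against CD8. Genes entered with at least 10 UMIs in at least 3 sums. Only the spread between libraries enters these p-values, and each library is a pool. That spread was estimated largely over all genes, with 103.9 prior degrees of freedom in the age and treatment fit and 28.8 between CD4 and CD8. Within 1 age or treatment, CPM ratios were given with exact Poisson intervals and no test. CPM is UMIs per 1000000 UMIs of the sum. Named genes were the called genes with the same sign in every pair and the largest differences (10 each way for CD4 against CD8), the largest 5 ratios each way between 2 libraries, and members of the lists, and a few further genes were chosen after their values were seen. The members, lists and tests were chosen with earlier results of these data known. DESeq2 1.42.0 was the alternative test, and sums and exact intervals came from scipy 1.17.1 under Python 3.11.15. The scripts were tested on simulated data. Some genes of the lists are not reported here. Alternatives were other cell filters, doublets left out, a stricter receptor rule, cells with macrophage UMIs left out, thinned cells, total-UMI scaling, no low-count filter, DESeq2 and leaving out each library. Leaving out cells with at least 10 Cd74 UMIs, leaving out both HU libraries and thinning before the rule were added after seeing the data.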

Additional observations from a re-analysis of the deposited data

Results flagged for a closer look

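The age difference (old minus young) was set against the same difference in CD8 T cells for 2446 genes with edgeR, and 5 genes differed (0.204%), with 83 at an unadjusted p under 0.05. Cd74 (3.85, adjusted p = 1.00e-04), Cst3 (2.50, adjusted p = 0.0268), H2-Aa (3.95, adjusted p = 0.0304) and H2-Ab1 (4.72, adjusted p = 0.0268), genes of antigen presentation and of myeloid cells, had a larger old minus young difference in CD4 than in CD8 T cells. In CD4 T cells Cd74 gave 530 and 4 UMIs in old and young control, 9 and 0 in old and young HU, and 3 and 5 in old and young reload, with 512 of the 530 in 1 cell. In CD8 T cells it gave 2651 and 481 UMIs in old and young control. Without cells of at least 10 Cd74 UMIs, the difference of Cd74 was 0.90 (adjusted p = 0.999) and that of Cst3 0.25, while H2-Aa and H2-Ab1 had too few UMIs to test.

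Trbv17, a receptor beta chain segment, differed by -7.01 (adjusted p = 1.08e-04), and by -6.89 (adjusted p = 0.00105) without the Cd74 cells. In CD4 T cells it gave 1 UMI in old control and 20 UMIs in young control, all 20 in 1 cell, and none elsewhere. In CD8 T cells it gave 81 UMIs in 7 old control cells and 10 UMIs in 1 young control cell. The cause of none of these differences was tested.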

How the results depend on the processing

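Signs were followed for genes called by edgeR that belong to the lists or had the largest differences with the same sign in every pair. None of these changed sign under the alternatives run. The signs of other named genes and of ratios between 2 libraries were not followed. With total UMIs the balance of CD4 against CD8 calls turned (below), and the median over all genes of old against young was -0.05 against 0.06. The number of genes called higher in old than young CD4 T cells was 1, and was 3 with cells holding a macrophage UMI left out, 0 without a low-count filter, 0 without both HU libraries, and 0 to 0 with 1 library left out; 1 gene was called lower without the filter. Between reload and HU, 1 gene was called higher, against 3 with at least 500 genes per cell, 3 without macrophage-UMI cells, 3 without cells of at least 10 Cd74 UMIs, 0 after thinning, 4 with total-UMI scaling and 0 to 1 with 1 library left out. Called lower there were 2 with at least 500 genes, 2 without macrophage-UMI cells, 2 without the Cd74 cells and 3 with total UMIs, against 0. Between HU and control, 1 gene was called higher, against 0 at 5% mitochondrial UMIs, 0 after thinning, 0 without a filter, 0 with DESeq2 and 0 with any 1 library left out, and 4 with at least 500 genes, 4 with total UMIs, 2 without doublets, 2 with at least 3 receptor genes and 2 without the Cd74 cells. Called lower there were 2 with at least 500 genes, 1 without doublets, 2 with at least 3 receptor genes, 2 without macrophage-UMI cells, 2 with total UMIs, 1 without the Cd74 cells and 0 to 1 with 1 library left out (1 without young control), against 0.

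CD4 against CD8 gave 60 higher, 93 with total UMIs and 41 to 58 with 1 library left out. It gave 86 lower, 33 after thinning, 42 with total UMIs, 166 without a filter and 43 to 83 with 1 library left out, with 44 without old HU, 45 without old reload and 43 without young reload. The share of CD4 T cells was 1.37% in old control and 0.432% in young control muscle when the rule was applied to thinned cells, and 0.449% in young reload muscle without macrophage-UMI cells. The Foxp3 share was 0% in old control cells with at least 3 receptor genes, 0% in young control cells without macrophage UMIs or after thinning to 1000 UMIs, and 0% in old HU cells after that thinning. The causes were not tested. Of 1345 further values followed under the alternatives, 174 were weaker and 18 stronger. These values were not only calls of single named genes.

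Depth was one limit, since 4810 to 311065 UMIs per library left 779 genes to test and a 0 in 2 to 19 cells bounds little. The others were 1 pool per group, 2 residual degrees of freedom and treatments that cannot be told apart from the title prefix. Old and young libraries share that prefix, so the treatment term of the age test already pairs them, and the library was the block between CD4 and CD8. Age still cannot be told apart from the source of the mice. Foxp3-positive cells were too few for the planned comparison.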
